A study of Mus musculus with 284 samples.

Results

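The cells described here are tumour propagating cells of mouse skin tumours, divided by whether their transcriptome held a Cd34 transcript. All of them had been sorted on CD34 protein, so the division is one of mRNA within cells that passed a CD34 gate. A cell was placed on the positive side when its expected count for Cd34 (ENSMUSG00000016494.9; GRCm38 chromosome 1, 194938819 to 194961279, plus strand) was above 0, and on the other side when it was 0. Of the 284 cells of the series, 207 had a Cd34 count and 77 had none. The Cd34 count chose the sides, so Cd34 itself is described below without a test between them and was left out of the genes compared.

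CD34 is a sialomucin, a heavily glycosylated transmembrane protein with an extended outer part that can carry selectin ligands. It is known from haematopoietic progenitors and vascular endothelium, and in mouse skin it marks the stem cells of the hair follicle bulge. In chemically induced mouse skin tumours, CD34 and integrin alpha 6 (CD49f, the product of Itga6) are the usual surface pair for sorting keratinocytes that can start a tumour after transfer. Integrin alpha 6 pairs with integrin beta 4 in hemidesmosomes, which fasten basal keratinocytes to the basement membrane. Basal keratinocytes that leave this membrane move up, stop dividing and switch on suprabasal genes such as Krt1 and Krt10.

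The mice were C57BL/6 animals carrying a keratin 14-driven Cre and a ROSA26 reporter that makes YFP after Cre has acted. At an age of 8 weeks they received the carcinogen DMBA once, and the tumour promoter TPA was then applied repeatedly for more than 20 weeks. Live YFP-positive cells with CD34 and CD49f on their surface were sorted from trypsin-dissociated tumours into 96-well plates, 1 library a cell, with a modified Smart-seq2 protocol that keeps no molecular identifiers. WT1 and WT2 are labelled wild type and KO1 and KO3 are labelled Sirt6-/-, so each genotype is 2 mice, and groups of values below follow the order WT1, WT2, KO1, KO3. The plates of the 2 genotypes were separate, which means that plate and genotype cannot be told apart. Sirt6, the gene named by the label, lay at 19.5, 29.4, 35.5 and 21.2 CPM (counts scaled to a common library size) in the summed cells without a Cd34 count and at 15.7, 24.2, 22.6 and 11.5 CPM in those with one. A Sirt6 transcript was thus present under the Sirt6-/- label at levels that overlapped those of the wild type, and the genotype is given below only as labelled. Counts per gene cannot check a deletion of single exons.

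WT1 had a Cd34 count in 58 of 69 cells (84.1%, exact 95% interval 73.3 to 91.8) and WT2 in 58 of 88 (65.9%, 55.03 to 75.7). KO1 had one in 54 of 73 cells (73.97%, 62.4 to 83.5) and KO3 in 37 of 54 (68.5%, 54.4 to 80.5). These binomial intervals cover counting error only. The share was highest in one wild-type mouse and lowest in the other, and the mice labelled Sirt6-/- lay between them. The genotype means were 75.0% ± 12.8 for the wild type and 71.3% ± 3.86 for the mice labelled Sirt6-/- (SD, n = 2 mice each; exact permutation test, two-sided, p = 1.0, where 0.333 is the smallest p that 2 against 2 mice allow). After each cell was thinned to 500000 counts, the share in WT2 was 64.8% and the shares of the other mice did not change. KO1 and WT2 each lay on a main plate and a second one, with 47 of 65 and 7 of 8 positive cells in KO1 and 53 of 81 and 5 of 7 in WT2.

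Among positive cells the level of Cd34 was broad rather than close to the threshold. Their median was 296 CPM (lowest 2.29, highest 1611) and 142 CPM (0.739 to 710) in the wild-type mice and 284 CPM (9.40 to 1047) and 155 CPM (23.1 to 989) in KO1 and KO3. Counts ran from 1 to 2146, and only 4 of the 207 positive cells had fewer than 10 counts. The cells just inside the threshold had 1, 1, 2, 8 and 10 counts, while every cell outside it had 0. The plot of Cd34 in each cell shows this gap between the negative cells and nearly all positive ones.

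**Figure D1:**
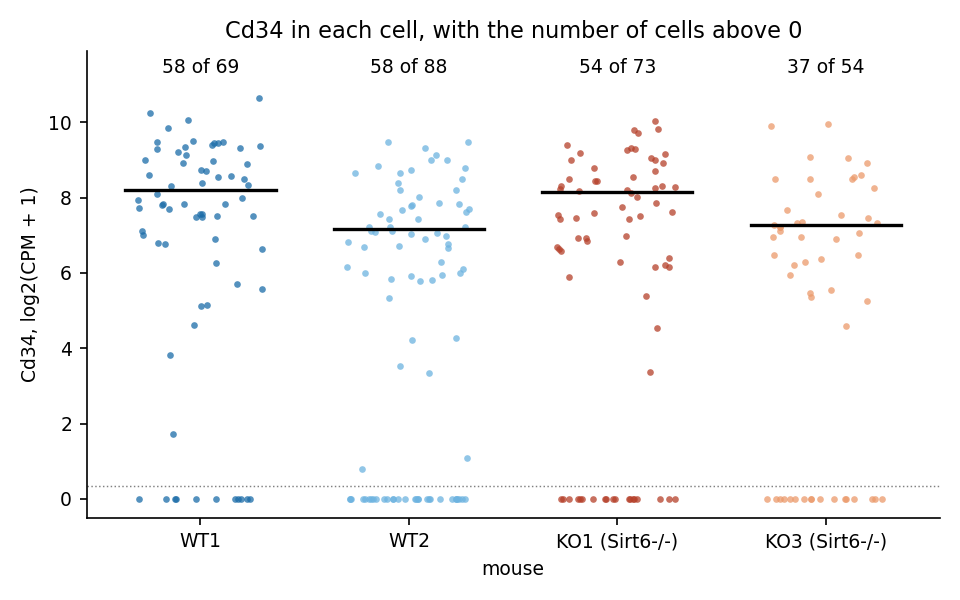
Each point is 1 cell, placed by mouse on the horizontal axis and by its Cd34 level, log2(CPM + 1), on the vertical axis, with black lines at the median of the cells above 0. The 77 cells on the dotted base line have no Cd34 count, and from left to right the medians of the others are 296, 142, 284 and 155 CPM.

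A count of 0 was unusual for a gene at this level. Over all 284 cells Cd34 lay at 218.8 CPM of the summed counts, and 369 other genes lay between 175 and 274 CPM. The median one of these had a count in 93.3% of the cells (quartiles 88.7% and 96.8%), against 72.9% for Cd34. Of the 369 genes, 13 (3.52%) were found in as few cells as Cd34 or fewer. Itga6, the gene of the other sorted surface protein, lay at 200.1 CPM and had a count in 91.9% of the cells. Genes are not independent replicates, and this is a description of where Cd34 lay among them.

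**Figure D2:**
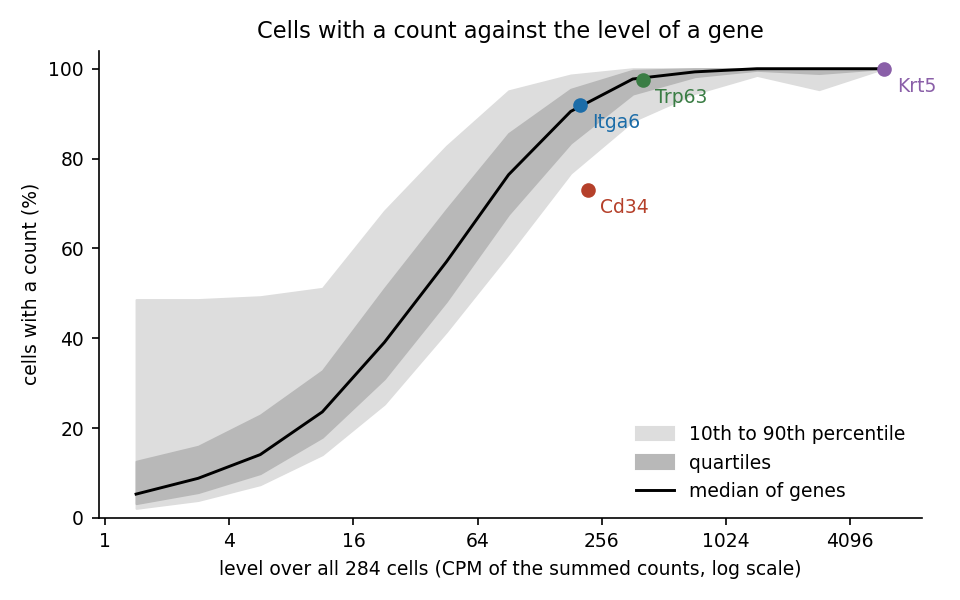
The horizontal axis is the level of a gene over all 284 cells in CPM (log scale) and the vertical axis the share of cells with a count; the line is the median of genes in each doubling of level and the bands are quartiles and 10th to 90th percentiles. Cd34, at 218.8 CPM and 72.9% of cells, lies under both bands, whereas Itga6 (91.9%) and Trp63 (97.5%) lie near the line.

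Depth and complexity leaned the same way as the division. The median cell without a Cd34 count had 979631, 991689, 1108842 and 1252969 total counts in the 4 mice, and the median cell with one had 1159281, 1114433, 1121208 and 1274964. The positive side was deeper in 4 of 4 mice, by 84188 counts on average (SD 80882, n = 4; exact paired permutation test, two-sided, p = 0.125, the smallest that 4 mice allow). The gap was 179649 and 122743 counts in the wild-type mice and 12365 and 21994 in the mice labelled Sirt6-/-. Detected genes numbered 6993, 5415.5, 6246 and 6462 without and 7012.5, 6066.5, 6400 and 6793 with a Cd34 count, a mean gap of 289 (SD 273, n = 4; same exact permutation test, p = 0.125). With equal depth the gap in detected genes was 255 (SD 270, n = 4; same exact permutation test, p = 0.25), and it was negative in WT1. The share of counts on mitochondrially encoded genes differed by 0.105 percentage points (SD 0.178, n = 4; same exact permutation test, p = 0.375). The main comparison below was therefore also computed in 77 positive cells matched to the 77 negative ones on detected genes within each mouse. The later comparisons, of Cd34 level within positive cells and of genotypes, were not. The matching did not equalise depth. In the matched cells the median totals were 1209436, 1058676, 1068291 and 1274964 with and 979631, 991689, 1108842 and 1252969 without a Cd34 count.

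Keratinocyte genes were present on both sides. Each of the cells, 100% with and without Cd34, had counts of the basal keratins Krt14 and Krt5. Trp63, the transcription factor of stratified epithelia, was found in 92.2% of the negative and 99.5% of the positive cells, and Itga6 in 81.8% and 95.7%. Since endothelium, mast cells and haematopoietic progenitors also use Cd34, the markers of other cell types were read on both sides. The endothelial genes Kdr, Emcn and Cldn5 were at 0 in every cell, and the summed level of all 11 endothelial markers lay between 3.87 and 20.3 CPM without and between 4.64 and 9.62 CPM with a Cd34 count. The other 8 had counts in some cells, Egfl7 in 13.4% and Tie1 in 7.0% of all cells. Cells with 2 or more of the 11 numbered 4 of 77 without and 8 of 207 with a Cd34 count. Of 8 mast cell and progenitor markers, 7 were at 0 in every cell, Kit and Cpa3 among them, and the list did not exceed 4.92 CPM on either side. Col1a2, Dcn, Lum, Pdgfrb and Dpt of the 12 fibroblast markers were at 0. The fibroblast sums of 120 to 236 CPM without and 126 to 266 CPM with a count were mainly Fbln1, which had a count in 80.3% of the cells. Immune markers lay between 4.17 and 25.6 CPM without and between 5.74 and 32.7 CPM with, and melanocyte markers reached 11.32 and 5.42 CPM. Muscle and adipocyte markers reached 82.3 CPM in the negative cells of KO3, of which 76.6 CPM was the fatty acid binding gene Fabp4, and 35.8 CPM in its positive cells.

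The main comparison asked which other genes differed between cells with and without a Cd34 count, with the mouse as replicate. Counts were summed per mouse and side, giving 8 sums, and the sides were compared within mice over 13903 genes. edgeR's quasi-likelihood test called 0 of them (percent called 0) after Benjamini-Hochberg adjustment, and limma-voom called 0 as well. At an unadjusted p under 0.05, edgeR had 996 genes (7.16%), of which 572 lay higher (4.11%) and 424 lower (3.05%) in positive cells. DESeq2, run on the same sums, called 504 genes (3.63%), 304 higher (2.19%) and 200 lower (1.44%). Where DESeq2's comparison was limited to genes of at least 10 CPM in 4 sums it called 94 higher and 153 lower, and with cells matched on detected genes 186 higher and 208 lower. The call of a single gene thus depends on the tool, and below "lay higher" and "lay lower" give a direction that edgeR's adjusted test did not pass. Differences were on the log2 scale, cells with minus cells without a Cd34 count. The median over all genes tested was 0.13, and 10.6% of the genes lay higher and 6.89% lower in each of the 4 mice. A summed level cannot tell fewer expressing cells from less RNA in each, so the cells with a count are given beside it for some genes.

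Among genes that lay lower in positive cells in each mouse, the retinoic acid binding gene Crabp2 (ENSMUSG00000004885.5; chromosome 3, 87948666 to 87953376) had the smallest p. It lay at 627, 181, 342 and 626 CPM without a Cd34 count and at 268, 95.7, 180 and 317 CPM with one, a log2 difference of -1.02 (SE 0.101; edgeR p = 9.953e-05, adjusted p = 0.614; DESeq2 adjusted p = 1.99e-12). The differences by mouse were -1.22, -0.91, -0.93 and -0.98, and a shared sign was a condition for naming the gene. The levels of the mice overlapped between the sides. Crabp2 had a count in 55 of 77 negative and 155 of 207 positive cells, so its lower sum came with a like share of cells. Cdkn1a (ENSMUSG00000023067.14; chromosome 17, 29090976 to 29100727), the cyclin-dependent kinase inhibitor p21 that holds cells in G1, lay at 322, 440, 339 and 470 CPM without and at 150, 220, 195 and 290 CPM with a Cd34 count (-0.90, SE 0.111). Here the 4 negative sums all exceeded the 4 positive sums. Ovol1, a transcription factor of epidermal differentiation, lay at 311, 157, 107 and 515 CPM without and at 117, 99.9, 58.95 and 203 CPM with a count (-1.07, SE 0.169).

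Another 8 of the 11 lower genes described here were Ephx3 (-2.03), an epoxide hydrolase of the epidermal barrier lipid pathway, Agpat3 (-1.62), an acyltransferase of phospholipid synthesis, Lss (-1.27), lanosterol synthase of cholesterol synthesis, Kyat1 (-1.15), a kynurenine aminotransferase, Nipal2 (-1.11), Sun2 (-1.07), a nuclear envelope protein, Klf10 (-1.02), a TGF-beta-induced zinc finger factor, and Vps53 (-0.82), of a vesicle tethering complex. Ephx3 was found in 29 of 77 negative and 37 of 207 positive cells. In all 11, edgeR's adjusted p was 0.614 and DESeq2's was at most 0.000386.

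In the other direction, Wnt10a (ENSMUSG00000026167.14; chromosome 1, 74791516 to 74804179), a secreted WNT ligand of skin appendages, lay at 142, 265, 117 and 72.3 CPM without and at 281, 408, 345 and 204 CPM with a Cd34 count, a log2 difference of 1.17 (SE 0.192; edgeR p = 0.00127, adjusted p = 0.614; DESeq2 adjusted p = 3.082e-05). Wnt10a differed by 0.98, 0.62, 1.55 and 1.49 in the 4 mice, where a shared sign was a condition for naming it. Wnt10a was found in 46 of 77 negative and 184 of 207 positive cells, and the lowest share was that of the negative cells of KO3 (4 of 17). Sparc (chromosome 11, 55394500 to 55423183), which encodes a matricellular protein that binds collagen, lay at 75.0, 23.2, 17.2 and 31.8 CPM without and at 166, 65.7, 58.8 and 52.3 CPM with a count (1.29, SE 0.226). Its counts came from 20 of 77 negative and 107 of 207 positive cells. Slc38a4, an amino acid transporter, lay at 75.8, 107, 149 and 138 CPM without and at 215, 158, 293 and 235 CPM with a count (0.95, SE 0.181), and there the sides did not overlap.

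The remaining 9 of the 12 higher genes were Apbb2 (2.10), an adaptor of the amyloid precursor protein, Rbl1 (1.81), the retinoblastoma relative p107, Rab32 (1.69), a small GTPase of organelle transport, Rasa4 (1.25), a Ras GTPase activating protein, Pitpnc1 (1.23), a phosphatidylinositol transfer protein, Ckb (0.92), brain-type creatine kinase, Tuba1b (0.81) and Tubb5 (0.61), which encode tubulins, and Cavin1 (0.70), a coat protein of caveolae. Rab32 had a count in 19 of 77 negative and 112 of 207 positive cells. Tubulin genes have close relatives that share reads, which makes their counts less certain. DESeq2's adjusted p of the 12 ranged from 3.082e-05 to 0.00374, and edgeR's was 0.614 for each.

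**Figure D3:**
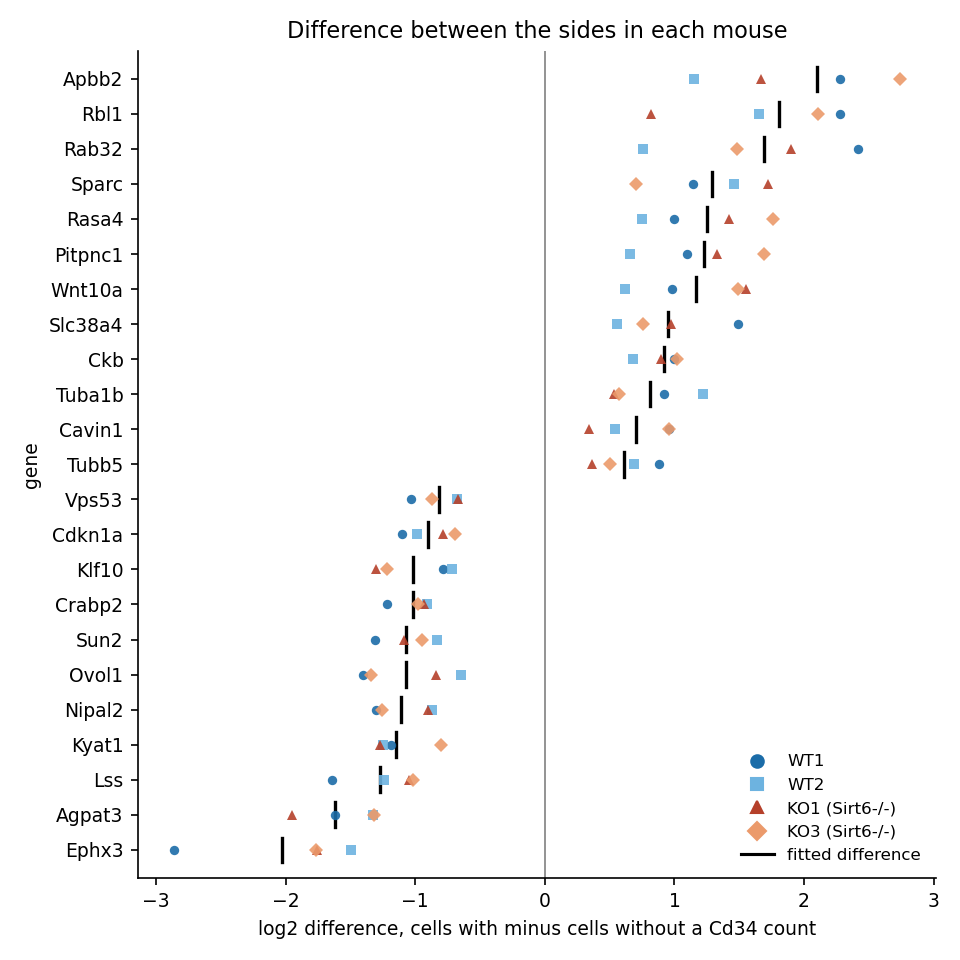
Each row is 1 of 23 named genes and the horizontal axis is the log2 difference between cells with and without a Cd34 count; symbols are the 4 mice and black ticks the fitted difference. The genes were chosen for the same sign in 4 mice, so no symbol crosses 0, and fitted differences run from -2.03 for Ephx3 to 2.10 for Apbb2.

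Genes of suprabasal differentiation lay lower in positive cells, by the largest median among the keratinocyte and pathway lists read here. Of 21 members 20 passed the filter on low counts, and 19 of them lay lower and 1 (Ivl) higher in positive cells, with a median log2 difference of -1.71 against 0.13 for all genes tested, of which 39.7% lay lower. The medians by mouse were -1.92, -0.45, -1.02 and -1.88. Of the 20, 14 lay lower in each of the 4 mice (6.89% of all genes), edgeR called 0, 16 had an unadjusted p under 0.05 on the lower side (3.05% of all genes), and DESeq2 called 15 lower (1.44%). Krt1, the type II keratin of the first suprabasal layer, lay at 824, 1667, 396 and 875 CPM without and at 110, 786, 81.5 and 64.96 CPM with a Cd34 count (log2 difference -2.51). Its partner Krt10 lay at 407, 715, 95.5 and 536 CPM without and at 21.5, 467, 6.46 and 15.96 CPM with one (-3.60). In both keratins WT2 had the highest level on the positive side and the smallest difference.

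Krt1 and Krt10 rested on few cells: Krt1 had a count in 32 of 77 negative and 59 of 207 positive cells, and a single cell held 29.03% and 31.95% of its counts on the 2 sides. In the wild-type mice the shares of cells with a Krt1 count were 27.3% without against 25.9% with a Cd34 count in WT1 and 30.0% against 27.6% in WT2, and in KO1 and KO3 they were 47.4% against 25.9% and 64.7% against 37.8%. Krt10 had a count in 39 of 77 negative and 89 of 207 positive cells, and a single cell held 26.4% and 41.6% of its counts on the sides. Its share of cells was higher on the positive side in both wild-type mice (36.4% without and 41.4% with in WT1, 30.0% and 41.4% in WT2) and lower in KO1 (68.4% and 38.9%) and KO3 (76.5% and 54.1%). Ly6d and Sbsn did not rest on single cells in this way. How far the other members named below rested on single cells was not read. The following members were picked after their values were seen. Ly6d, a surface protein of differentiating keratinocytes, lay at 1709, 496, 1431 and 2405 CPM without and at 268, 393, 311 and 831 CPM with a Cd34 count (-1.70), and no cell held more than 5.43% of a side. Sbsn, which encodes suprabasin, lay at 222, 113, 141 and 221 CPM without and at 75.3, 75.8, 60.3 and 65.6 CPM with a count (-1.28), so that its sides did not overlap. Its top cell held 9.40% of the counts without and 5.07% with a Cd34 count. Dmkn, Krtdap and Grhl3, a transcription factor of barrier formation, differed by -0.99, -0.68 and -1.68, all in one direction in 4 mice. Casp14, the caspase of cornification, differed by -2.64 and Sprr1a, of the cornified envelope, by -2.89. Neither was found in 10% of the cells of every mouse. Ivl, also of the cornified envelope, differed by 1.75 (SE 1.69).

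Genes of cholesterol synthesis also lay lower in positive cells, except in WT2. All 18 members were tested, 17 lay lower (39.7% of all genes) and 1 higher, with a median of -0.66. Of the 18, 11 had an edgeR unadjusted p under 0.05 on the lower side (3.05% of all genes), while DESeq2 called 3 (1.44%). The medians by mouse were -1.02, 0.24, -0.95 and -0.93. Sqle, squalene epoxidase, lay at 381, 81.8, 219 and 407 CPM without and at 150, 64.2, 68.9 and 153 CPM with a Cd34 count (-1.20). Lss and Sqle were among the 4 members that lay lower in each mouse (6.89% of all genes). Mvk, mevalonate kinase, differed by -1.13 but lay higher in WT2 (24.8 without, 29.6 CPM with). The cells of WT2 without a Cd34 count had the lowest summed level of the list, 946 CPM, against 3592, 2119 and 3848 CPM in WT1, KO1 and KO3.

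Genes of wounded and hyperplastic epidermis, keratins among them, split in the same way between mice. Of 10 tested members 8 lay lower (39.7% of all genes), with a median of -0.95, and the medians by mouse were -1.46, 1.09, -2.27 and -1.38. Krt16 lay at 13191, 943, 5003 and 9190 CPM without and at 1629, 927, 929 and 3016 CPM with a Cd34 count (-1.80, DESeq2 adjusted p = 0.0553). Sprr1b, of the cornified envelope, differed by -1.68. Krt6a, Krt6b, Krt16 and Krt17 have near-identical relatives, so their counts are uncertain. In WT2 the summed list lay at 3213 CPM without and 5116 CPM with a count, and in the other mice it was higher without a Cd34 count (41100 against 13230, 17610 against 8151 and 29220 against 15110 CPM).

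Acute response genes differed by smaller amounts. Of 19 tested immediate early genes 16 lay lower (39.7% of all genes), with a median of -0.23, and DESeq2 called 4 lower (1.44%) and 1 higher (2.19%). Klf6 differed by -0.56 and Jun (named after its values were seen) by -0.35, whereas Ccn1, a matricellular gene that YAP is known to induce, lay at 233, 825, 238 and 89.8 CPM without and at 398, 975, 394 and 331 CPM with a Cd34 count (0.90). The inducible chaperone genes Hspa1a and Hspa1b, a near-identical pair, differed by -0.70 and -0.56. The median of the 12 chaperone genes was 0.08. Among 17 p53 targets and cell cycle inhibitors the median was 0.06. DESeq2 called 2 of them lower (1.44% of all genes), Cdkn1a (-0.90) and Mdm2 (-0.65, named after its values were seen).

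On the higher side, the basal and hemidesmosome list held the integrins. All 18 members were tested, 15 lay higher (60.3% of all genes) and 3 lower, with a median of 0.52, and the medians by mouse were 0.41, -0.01, 0.34 and 0.96. Without KO3 the median was 0.31, with limma-voom 0.31, without the mouse as block 0.25, and in models over cells, which average each cell's log2(CPM + 1) and so are on another scale, 1.35 with and 1.46 without total counts and detected genes as covariates. Itgb4, the hemidesmosomal partner of integrin alpha 6, lay at 484, 982, 364 and 160 CPM without and at 919, 1361, 690 and 660 CPM with a Cd34 count (log2 difference 1.08, DESeq2 adjusted p = 0.00222). Itgb1, the partner of the collagen- and laminin-binding integrins, lay at 162, 455, 276 and 107 CPM without and at 712, 505, 395 and 383 CPM with a count (1.16, DESeq2 adjusted p = 0.0241). Itga6 itself lay at 173, 219, 109 and 112 CPM without and at 269, 228, 139 and 199 CPM with a count (0.47, SE 0.158; edgeR p = 0.0281; DESeq2 adjusted p = 0.19). The direction was the same in the 4 mice for these 3 integrins, and edgeR's adjusted test passed none of them. The list also held Itga3 and Itga2. Itga3 (chosen after its values were seen) differed by 0.86 (SE 0.316) but did not share 1 sign in the 4 mice. Itga2 differed by 1.20, with an edgeR p of 0.467.

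The structural members differed among themselves. Plec, which links hemidesmosomes to keratin, differed by 0.57 (DESeq2 adjusted p = 0.00996). With Itgb4 and Itgb1 it made the 3 of 18 members that DESeq2 called higher (2.19% of all genes). Krt5 lay higher by 0.33 (SE 0.101) while Krt14 lay lower by -0.24 (SE 0.091). Dsp, the desmosomal plaque protein that joins keratinocytes to each other, differed by -0.61 (1306, 869, 633 and 1086 CPM without and 603, 834, 498 and 582 CPM with a count). The laminin genes Lama3 and Lamb3 had log2 differences of 0.49 and 0.11, with edgeR p of 0.324 and 0.79. Plec, Dsp and the laminin genes were chosen after their values were seen.

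Genes tied to the hair follicle stem cell and to tumour propagating cells had few or no DESeq2 calls between the sides. Of 22 follicle stem cell genes 14 were tested, and 13 lay higher (60.3% of all genes) and 1 lower. Their median was 0.46, and it was 0.06 with limma-voom, 0.11 without KO3 and 0.73 without WT2. Only 1 lay higher in each mouse (10.6% of all genes), 0 had an edgeR p under 0.05, and DESeq2 called 0. Krt15, the bulge keratin, lay at 1531, 1034, 289 and 105 CPM without and at 1473, 1263, 1043 and 562 CPM with a Cd34 count, so the sides differed in the mice labelled Sirt6-/- and barely in the wild type (differences -0.06, 0.29, 1.85 and 2.41). Sox9, a follicle and tumour transcription factor, differed by 0.19 (SE 0.337). Of 14 tested surface and VEGF pathway genes 10 lay higher (60.3% of all genes), with a median of 0.37. Itgb1 was the 1 that DESeq2 called higher (2.19% of all genes). Nrp2, a VEGF co-receptor, differed by 0.58 and Alcam by 0.94, neither with an edgeR p under 0.05. Of 14 tested factors of tumour propagating cells 8 lay higher and 6 lower: Elk3 differed by 0.83, and Pitx1 lay at 96.9, 9.08, 52.6 and 101 CPM without and at 43.1, 7.13, 30.9 and 59.1 CPM with a count (-0.77, DESeq2 adjusted p = 0.0495). Only 4 of 13 genes of sialomucins and selectin ligand synthesis passed the filter, and 3 of them lay higher.

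Of 16 mesenchymal and matrix genes 9 passed the filter, and 6 lay higher (60.3% of all genes) and 3 lower, and DESeq2 called 3 higher (2.19% of all genes). Tnc, which encodes the matrix protein tenascin-C, lay at 17.7, 160, 6.89 and 0.63 CPM without and at 184, 356, 58.6 and 55.97 CPM with a Cd34 count (3.30), with counts in 27 of 77 negative and 124 of 207 positive cells. Sparc (1.29) and Lgals1 (1.94), the galectin-1 gene, were the other two. Vim, the mesenchymal filament gene, reached 22.7 CPM in 1 sum and was at 0 in 4 of 8 sums, and Cdh1 differed by -0.50. Among 19 tested WNT genes DESeq2 called 2 higher (2.19% of all genes), the ligands Wnt10a (1.17) and Wnt3a. Wnt3a lay at 1.90, 31.5, 0.95 and 0.05 CPM without and at 25.7, 40.8, 22.8 and 27.4 CPM with a count (4.07). Among 12 NOTCH pathway genes the target Hes1 differed by -2.02, at 35.2, 21.3, 19.5 and 7.08 CPM without and at 2.84, 4.88, 4.90 and 5.77 CPM with a count.

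**Figure D4:**
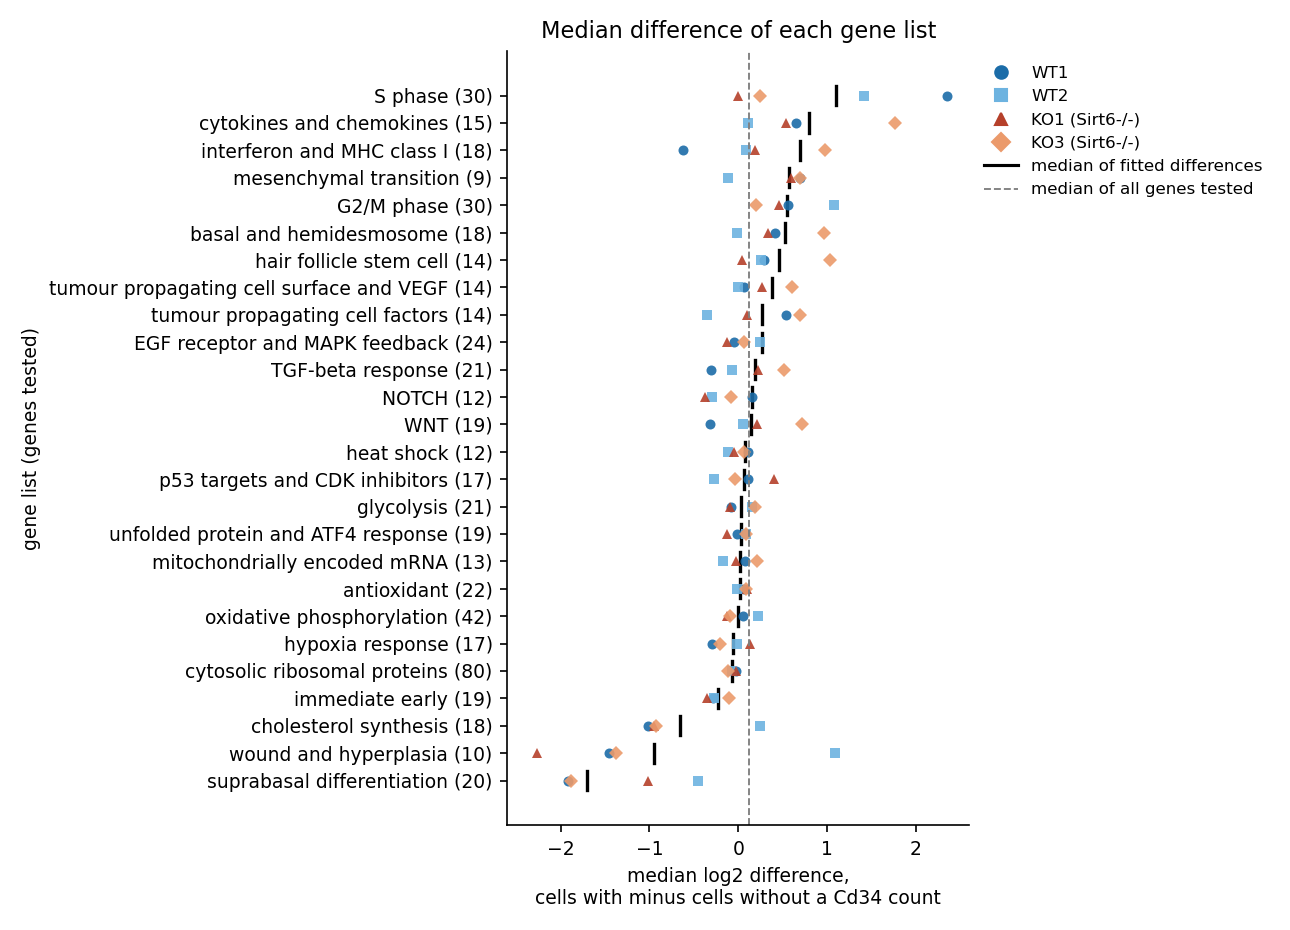
Each row is a gene list with its number of tested genes, and the horizontal axis is the median log2 difference between cells with and without a Cd34 count; symbols are the 4 mice, black ticks the median of the fitted differences, and the dashed line the 0.13 of all genes. Suprabasal differentiation lies lowest (-1.71) and the S phase list highest (1.1), with both wild-type mice to the right of both mice labelled Sirt6-/-. WT2 stands to the right of the other mice for cholesterol synthesis and for the wound and hyperplasia list.

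Replication genes lay higher in the positive cells of both wild-type mice, by less in KO3, and had a median of -0.00 in KO1. Of 30 S phase genes 29 lay higher (60.3% of all genes) and 1 lower, 8 of them higher in each mouse (10.6% of all genes). The fitted median was 1.1, and the medians by mouse were 2.35, 1.42, -0.00 and 0.24. The summed level of the list was 1109, 1215, 3445 and 3795 CPM in negative cells and 4929, 3135, 3631 and 4721 CPM in positive cells. The 2 wild-type sums without Cd34 thus lay below the 6 others. Mcm2 (chosen after its values were seen), a subunit of the replicative helicase, lay at 39.2, 53.3, 261 and 171 CPM without and at 394, 216, 259 and 272 CPM with a Cd34 count. It was found in 3 of 11 negative and 46 of 58 positive cells of WT1, in 7 of 30 and 27 of 58 of WT2, in 14 of 19 and 35 of 54 of KO1, and in 8 of 17 and 33 of 37 of KO3. The negative cells of WT1 were the smallest group, 11 cells, and without WT1 the median of the list was 0.63. The depth gap between the sides was also larger in the wild-type mice, and its bearing on the S phase differences by mouse was not tested. With cells thinned to equal depth the S phase median was 1.11. It was 0.87 in models over cells with covariates and 1.02 with cells matched on detected genes. These medians are over the 4 mice together, not by mouse.

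Mitotic genes gave a less stable picture. All 30 tested G2/M genes lay higher (60.3% of all genes), with a median of 0.55 (0.56, 1.08, 0.46 and 0.20 by mouse). Of these 30, 5 had an edgeR unadjusted p under 0.05 (4.11% of all genes higher), while DESeq2 called 3 (2.19%). Ect2, a regulator of cytokinesis, lay at 14.9, 18.0, 8.6 and 47.05 CPM without and at 63.5, 46.9, 28.9 and 57.6 CPM with a Cd34 count (1.38). Mki67, a proliferation marker (chosen after its values were seen), had a count in 30 of 77 negative cells and 124 of 207 positive ones. By mouse these were 3 of 11 and 37 of 58 in WT1 and 8 of 30 and 29 of 58 in WT2. They were 6 of 19 and 28 of 54 in KO1 and 13 of 17 and 30 of 37 in KO3, where the shares differed least. In the 77 positive cells matched to the negative ones on detected genes, the median of the list was -0.28, whereas it was 0.25 in models over cells with covariates and 0.31 in cells thinned to equal depth. The cause of the reversal was not tested.

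A grading of Cd34 within the positive cells gave a comparison that the division at 0 had not used. In each mouse the positive cells were parted at the median Cd34 CPM into an upper tier, whose medians were 588, 293, 487 and 359 CPM, and a lower tier, whose medians were 177, 67.8, 121 and 87.6 CPM. Both comparisons use the positive cells, so their values are given side by side without a count of shared signs. Of 13566 genes edgeR called 0 (percent called 0) and limma-voom called 0, while 910 (6.71%) had an edgeR unadjusted p under 0.05 and DESeq2 called 341 (2.51%). For the genes named above, the difference of the upper minus the lower tier was -1.02 for Crabp2, -0.39 for Cdkn1a and -0.83 for Ovol1, beside -1.02, -0.90 and -1.07 for cells with minus cells without a count. It was 0.68 for Wnt10a, 1.12 for Sparc and 0.69 for Slc38a4, beside 1.17, 1.29 and 0.95. Kyat1 (0.12), Tuba1b (-0.10) and Tubb5 (-0.05) had the opposite sign in the tiers.

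Among genes that lay lower in the upper tier, the smallest p was that of Calm4, a calmodulin-like gene of differentiating epidermis. It lay at 451, 1284, 911 and 876 CPM in the lower and at 48.3, 184, 234 and 249 CPM in the upper tier, a log2 difference of -2.45 (SE 0.275; edgeR p = 0.000166, adjusted p = 0.573). Fabp5, the epidermal fatty acid binding protein, lay at 2812, 2716, 3503 and 4490 CPM in the lower and at 583, 482, 1034 and 1979 CPM in the upper tier (-1.93). In both genes the tiers did not overlap. Crabp2 (-1.02), Perp (-0.61), a desmosomal protein, and Zfp750 (-3.17), an epidermal differentiation factor, completed the 5. Slc7a8 (1.36), an amino acid transporter, Cav1 (0.83), caveolin-1, Parva (0.67), of focal adhesions, Dst (0.74), of hemidesmosomes, and Slc38a4 (0.69) had the smallest p on the higher side. Cav1 lay at 254, 296, 120 and 62.1 CPM in the lower and at 469, 501, 181 and 131 CPM in the upper tier. All 10 genes had an adjusted p of 0.573.

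Between the tiers, the suprabasal and the mitotic list both lay lower in cells with more Cd34. Of 18 suprabasal genes tested 17 lay lower in the upper tier (51.3% of all genes), with a median of -1.62. Of 18 basal genes 14 lay higher (48.7% of all genes), with a median of 0.32, and 9 of these had an edgeR unadjusted p under 0.05 (3.63% of all genes). Of 14 follicle stem cell genes 12 lay higher, with a median of 0.68, and 4 of these had an edgeR unadjusted p under 0.05. S phase genes had a median of 0.11, with 19 higher and 11 lower. Of the G2/M genes 29 of 30 lay lower in the upper tier, with a median of -0.68, and 13 had an unadjusted p under 0.05 on the lower side (3.07% of all genes). Mki67 differed by -0.81 and Nusap1, a spindle protein, by -2.10, both chosen after their values were seen.

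Read over 3 steps (no Cd34 count, lower tier, upper tier), several genes were ordered in every mouse. Krt1 lay at 841, 1665, 397 and 883 CPM in cells without Cd34, 223, 1563, 169 and 81.6 CPM in the lower tier and 8.59, 14.4, 4.75 and 49.2 CPM in the upper tier. The 3 steps were scaled together, so these levels differ slightly from those of the 8 sums. Sbsn, Crabp2, Ovol1 and Agpat3 were also ordered downward in 4 of 4 mice, and Ly6d in 3, since WT2 had 495, 664 and 127 CPM. Wnt10a, Slc38a4, Cavin1, Rasa4, Itgb4 and Itgb1 were ordered upward in 4 of 4 mice. Of the basal list Plec was too, but Itga6 was ordered upward in 2 mice, Krt5 and Col17a1 in 1 and Krt14 in 0. Of the suprabasal list Tgm3 and Calml3 were ordered downward in 4 mice, Krt10, Krtdap and Dmkn in 3 and Spink5 in 0. The share of all genes ordered in this way is not given here. Itgb4 had 494, 981, 364 and 161 CPM without Cd34, 689, 1210, 554 and 632 CPM in the lower tier and 1136, 1559, 840 and 692 CPM in the upper tier. For the suprabasal list the median against cells without Cd34 was -1.05 in the lower and -2.68 in the upper tier, and in WT2 it was 0.02 and -1.76. The named genes were chosen on the first of these steps, so their order is a description.

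**Figure D5:**
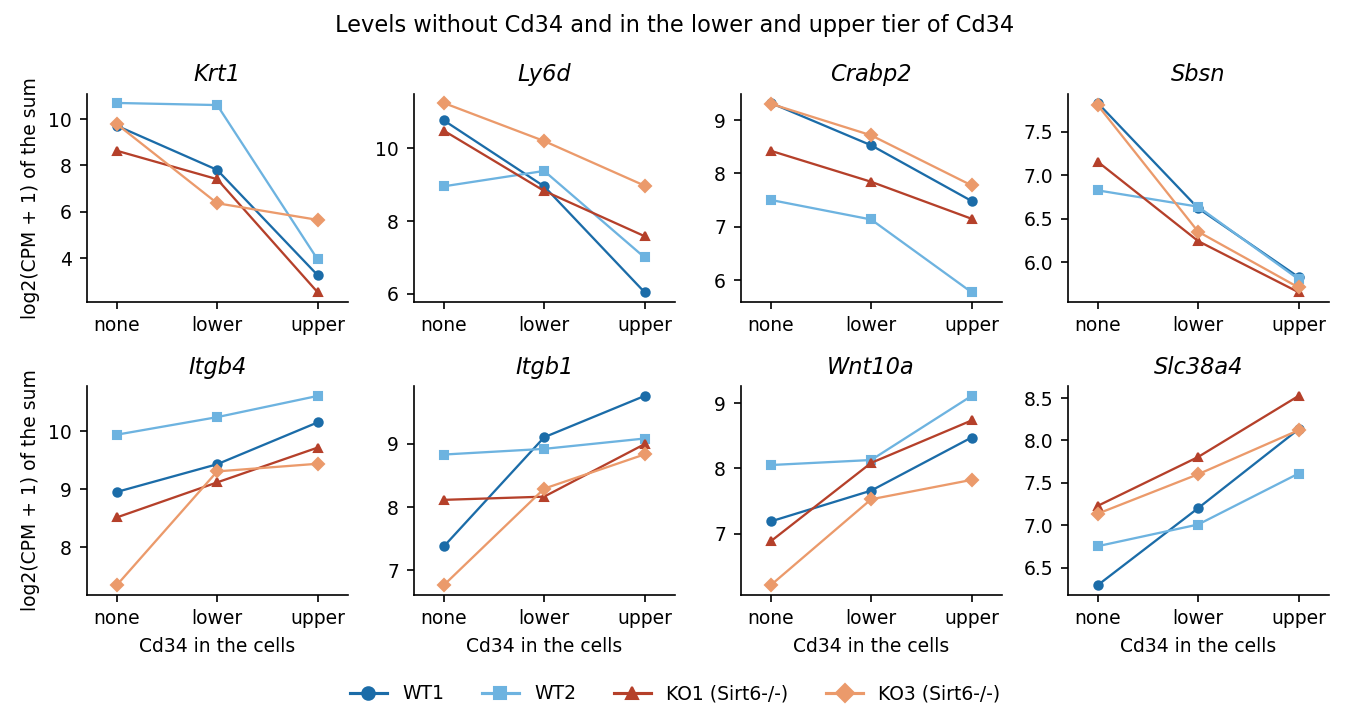
Each panel is 1 gene and the vertical axis is its log2(CPM + 1) in summed cells without Cd34 and in the lower and upper tier of Cd34 among positive cells, with 1 line a mouse. Krt1, Crabp2 and Sbsn step down and Itgb4, Itgb1, Wnt10a and Slc38a4 step up in each mouse, while Ly6d is higher in the lower tier than without Cd34 in WT2.

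The last comparison asked whether the difference between the sides itself differed between genotypes. Over 13903 genes edgeR's interaction test called 0 (percent called 0) and limma-voom called 0, with 607 genes (4.37%) at an edgeR unadjusted p under 0.05 (2.17% higher and 2.19% lower), and DESeq2 called 139 (1%), 86 with a higher (0.619%) and 53 with a lower difference (0.381%) in the mice labelled Sirt6-/-. Of the 5 genes with the smallest p on the lower side, 4 belong to DNA replication and its repair or packaging. Rpa2, which binds single-stranded DNA, lay at 15.2, 12.2, 69.1 and 60.3 CPM without and at 94.5, 76.2, 69.2 and 75.4 CPM with a Cd34 count, so its differences were 2.56, 2.55, 0.00 and 0.32 (interaction -2.47, SE 0.325; edgeR p = 0.00116, adjusted p = 1). Gmnn, the replication licensing inhibitor geminin, lay at 10.7, 8.48, 51.6 and 61.5 CPM without and at 63.6, 41.7, 43.2 and 67.2 CPM with a count. Among negative cells Rpa2 was found in 3 of 11, 6 of 30, 13 of 19 and 7 of 17. Gmnn was found in 4 of 11, 8 of 30, 10 of 19 and 14 of 17 of them, so the wild-type levels rested on few cells. Asf1b, a histone chaperone, lay at 8.15, 5.91, 38.5 and 92.0 CPM without and at 53.9, 32.2, 39.9 and 66.6 CPM with one. Exo1, an exonuclease, had no count in the wild-type cells without Cd34, where 3 counts would have given 0.258 and 0.102 CPM, and lay at 33.97 and 16.9 CPM in those with it. The fifth gene was Gcat, of threonine breakdown (-1.51).

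Over the S phase list, 24 of 30 genes had a larger difference in both wild-type mice than in both mice labelled Sirt6-/- (17.4% of all genes), and 0 the reverse (16.9%). Of the 30, 15 had an edgeR unadjusted interaction p under 0.05 on that side (2.19% of all genes), DESeq2 called 13 (0.381%), and edgeR called 0. The 30 genes were read in the same cells, so they are not independent results. On the other side of the interaction, Krt15 (2.02, SE 0.276), Tax1bp3 (1.68), Ptprs (1.54), Myc (1.36) and Tmem176a (2.69) had the smallest p. Myc, the growth-promoting transcription factor, lay at 513, 908, 273 and 206 CPM without and at 295, 580, 467 and 291 CPM with a Cd34 count, lower on the positive side in both wild-type mice and higher in both others. With 2 mice a genotype on separate plates, these differences cannot be told apart from plate. The depth gap between the sides was larger in the wild-type mice, and the interaction was not computed in thinned or matched cells.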

How the data were processed

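Cells of 4 mice were profiled singly by Smart-seq2, per the labels' protocols. The authors deposited expected counts (1 row a gene, 1 column a cell) made with STAR and RSEM on mm10 (GRCm38), per the submitters' processing notes, with versions and settings not given in the sources used here. Among non-zero values 21.5% were not whole numbers. Symbols and coordinates came from GENCODE M21 of GRCm38, which matched 54156 of 54247 IDs. Totals lay between 523999 and 1684464 counts a cell (median 1130412). No cell was left out and no doublet caller was run.

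The members, lists and named-gene rule were chosen with earlier results of these data known. Expected counts were summed per mouse and side, rounded, and tested with edgeR 4.0.16 in R 4.3.3 (TMM, filterByExpr, quasi-likelihood test, mouse as block, Benjamini-Hochberg, threshold 0.05; 3 residual degrees of freedom), with DESeq2 1.42.0 and limma-voom (limma 3.58.1) as alternatives. The mouse is the block because both sides come from the same animal. Levels are TMM-scaled CPM, except those of Cd34, of genes set beside it for detection, of summed lists and of marker sums, which are unscaled. Named genes share their sign in 4 mice, were detected in no fewer than 10% of each mouse's cells and, since none passed the threshold, are the 12 of smallest p in each direction. Of the lower ones, 11 are described, and some items are not reported here. Up to 3 members a list and 5 genes a direction of the other comparisons could be named too. The test was tested on simulated data. Alternatives varied the tool, scaling, filters, block, left-out mice, depth, threshold and plates. All cells of a mouse come from 1 animal, so p-values rest on 4 mice. With the mouse as block they measure how the difference between the sides varies across the mice, not how levels vary between mice. SE is the absolute log2 difference divided by the square root of edgeR's F statistic.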

Additional observations from a re-analysis of the deposited data

Results flagged for a closer look

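Of 56 sets of 4 mouse values checked for 1 value far from the rest, 3 stood out, and chance gives about 1 in 20. For Kyat1 the difference in KO3 (-0.80) stood apart from -1.19, -1.25 and -1.27 in the other mice. For the cholesterol synthesis list the median of WT2 (0.24) stood apart from -1.02, -0.95 and -0.93. For the mesenchymal list the median of WT2 (-0.12) stood apart from 0.69, 0.59 and 0.70.

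The genotypes moved in opposite directions for 2 lists, and for the lists this was not tested. Oxidative phosphorylation genes had medians of 0.05 and 0.22 in the wild type and -0.13 and -0.09 in the mice labelled Sirt6-/-, a gap of 0.245. Of its 42 genes, 24 had larger differences in both wild-type mice (17.4% of all genes), and 0 had an edgeR unadjusted interaction p under 0.05. TGF-beta response genes had medians of -0.31 and -0.07 in the wild type and 0.22 and 0.51 in the others, a gap of -0.555, and 3 of 21 had an edgeR unadjusted interaction p under 0.05 in that direction (2.17% of all genes).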

How the results depend on the processing

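The count of called genes depended on the tool: edgeR called 0 under each scaling, filter, depth, threshold and plate setting run, whereas DESeq2 called 504 for the split, 341 for the level and 139 for the interaction. DESeq2's 504 was 247 with genes of at least 10 CPM in 4 sums and ranged from 265 to 640 over left-out mice (265 without WT1, 327 without KO1, 324 without KO3), settings added after the data were seen. Leaving out each mouse, edgeR called 0 to 0 genes for the split (723 to 1069 at an unadjusted p under 0.05) and 0 to 0 for the level, the gap in total counts ranged from 52368 to 108129, and that in detected genes from 168 to 379. Without the replicate block edgeR called 0 genes for the split (595 unadjusted) and 0 for the level (475). The named genes were chosen for 1 sign in 4 mice, so that their sign held says little, and their size moved in models over cells with covariates, which are on the scale of each cell's log2(CPM + 1) (Wnt10a from 1.17 to 3.08, Ovol1 from -1.07 to -2.32). The G2/M median reversed to -0.28 with cells matched on detected genes. The median of all genes was 0.13 with TMM, 0.09 with RLE size factors and 0.21 with plain library sizes.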

Other observations

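Energy and translation genes differed little between the sides. Of 42 oxidative phosphorylation genes 20 lay higher and 22 lower in positive cells, with a median of -0.01, and Sdhd, a subunit of succinate dehydrogenase, differed by 0.53. Of 21 glycolysis genes 14 lay higher (60.3% of all genes), with a median of 0.03, and Slc16a3, a lactate exporter, differed by 1.49. Of 80 tested ribosomal protein genes 65 lay lower (39.7% of all genes), with a median of -0.07. Within the positive cells 38 of 42 oxidative phosphorylation genes (median -0.18) lay lower in the upper tier of Cd34 (51.3% of all genes). So did 78 of 80 ribosomal protein genes (median -0.14). An edgeR unadjusted p under 0.05 on that side was found for 3 of the 42 and 3 of the 80 (3.07% of all genes).

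Ngfr, the low-affinity neurotrophin receptor, was read here as a nerve marker, and it lay at 85.5, 34.02, 60.8 and 8.65 CPM without and at 110, 67.1, 118 and 32.7 CPM with a Cd34 count (log2 difference 1.04, edgeR p = 0.0116), while the Schwann cell genes S100b and Sox10 were at 0 in every cell. Erbb3, a receptor of the EGF receptor family, differed by -1.11. Of 15 tested cytokine and chemokine genes 13 lay higher (60.3% of all genes), with a median of 0.79, and Lif (1.89) and Tnf (1.21) each had an edgeR p above 0.05. The 6 tested genes within 500 kb of Cd34 had fitted differences above 0 (60.3% of all genes) with a median of 0.80, but 0 of them lay higher in each mouse, the medians by mouse were 0.54, -0.04, 0.11 and -0.28, and 0 had an edgeR unadjusted p under 0.05. Of 18 tested interferon response genes 16 lay higher (60.3% of all genes), with a median of 0.70 that ran from -0.62 in WT1 to 0.98 in KO3. Antioxidant genes (11 higher, 11 lower), hypoxia genes (8 and 9) and unfolded protein response genes (10 and 9) were evenly divided. Of 24 EGF receptor and MAPK genes 16 lay higher (60.3% of all genes), with a median of 0.27.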
